A study of Apis mellifera with 12 samples.

Results

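Circular RNAs (circRNAs) of honey bee (Apis mellifera) queen ovaries were compared between queens that had resumed egg laying after a pause and queens that had never laid. The released queens had been kept in a cage for 7 days, which inhibited laying, and their ovaries were taken on day 8, after release, once eggs were being laid again. The virgin queens had not laid, and the labels give them no treatment. Each group had 3 libraries, so 6 of the 12 libraries in the study were compared, and the other 6 came from normally laying queens and from queens sampled while still caged. The labels give no strain, no age in days, no number of queens per library and no batch, and they do not say that the 3 libraries of a group came from separate queens, so p-values measure the spread between these samples. The label virgin gives those queens as unmated, while the mating of the released queens and the rearing of both groups are not given. Differences in mating or rearing cannot be told apart from laying.

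A circRNA is made when a splice donor is joined back to an acceptor upstream of it, which closes the RNA into a loop without free ends and protects it from RNase R, an enzyme that digests linear RNA from its end. Its level depends both on how much its host gene is transcribed and on how often back-splicing takes place instead of linear splicing, and linear RNA was not measured here. The queen's ovary is a bundle of tubes, the ovarioles, in which oocytes, nurse cells and follicle cells mature, and a laying ovary holds many more growing follicles than that of a virgin. In ovary RNA of this kind, fewer cells of a type and less RNA per cell cannot be told apart.

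The deposited table gave read counts in every library for 20244 circRNAs, each with its strand and position, and 14263 of them had reads in the 6 libraries compared. Totals were 106396, 163875 and 111025 circRNA reads in the released libraries and 201414, 66487 and 119117 in the virgin libraries. The smallest count above 0 was 2, so a circRNA listed at 0 may have had a read, and folds are left out where a whole group is listed at 0. After a filter on low counts, 3215 circRNAs were tested, and they held 94.6% to 95.9% of the reads of a released library and 91.8% to 92.8% of those of a virgin library. Levels are given as CPM, the library's counts scaled to a total of 1000000 circRNA reads, with no length term. Fold changes come from edgeR's fit with TMM scaling and can differ from ratios of CPM means, since the fit scales and weights the libraries. CircRNAs are not paired with genes in the table, so neither host genes nor the ovary's marker genes could be read from it, and each is identified by its deposited name and position in the Amel_4.5 assembly.

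Released ovaries differed from virgin ovaries at 621 of 3215 circRNAs (19.3%; edgeR's quasi-likelihood test, Benjamini-Hochberg adjusted p under 0.05). Of these, 367 (11.4% of those tested) were higher in released ovaries and 254 (7.90%) were lower. At an unadjusted p under 0.05 there were 1075. The median log2 fold change over all tested circRNAs was 0.09. Among the 298 higher circRNAs with reads in at least 1 virgin library, the median fold was 3.57, 122 were over 4-fold higher, and 27 were under 2-fold higher. The 225 lower circRNAs with reads in at least 1 released library had a median fold of 3.86 lower, with 110 over 4-fold and 14 under 2-fold lower. The excess of higher calls was not found under every alternative. There were 312 higher and 315 lower with library totals as the only scaling, and 239 higher and 254 lower with only the 6 libraries in the fit. The count of lower circRNAs rested partly on single libraries. It was 164 without released replicate 1 and 155 without virgin replicate 1.

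The released and virgin libraries did not overlap in CPM for 319 of the 367 higher circRNAs and for 249 of the 254 lower ones. Over all tested circRNAs, 16.9% had every released library above every virgin library, and 20.1% had every released library below every virgin library. The called circRNAs took up a large part of the reads. Those higher in released ovaries held 40.4% ± 1.58 of the reads of a released library, against 14.99% ± 1.36 of a virgin library (SD, n = 3 each). Those lower in released ovaries held 6.45% ± 0.165 of released reads and 23.0% ± 0.897 of virgin reads. These shares describe circRNAs that were chosen by the same contrast and carry no test.

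**Figure D1:**
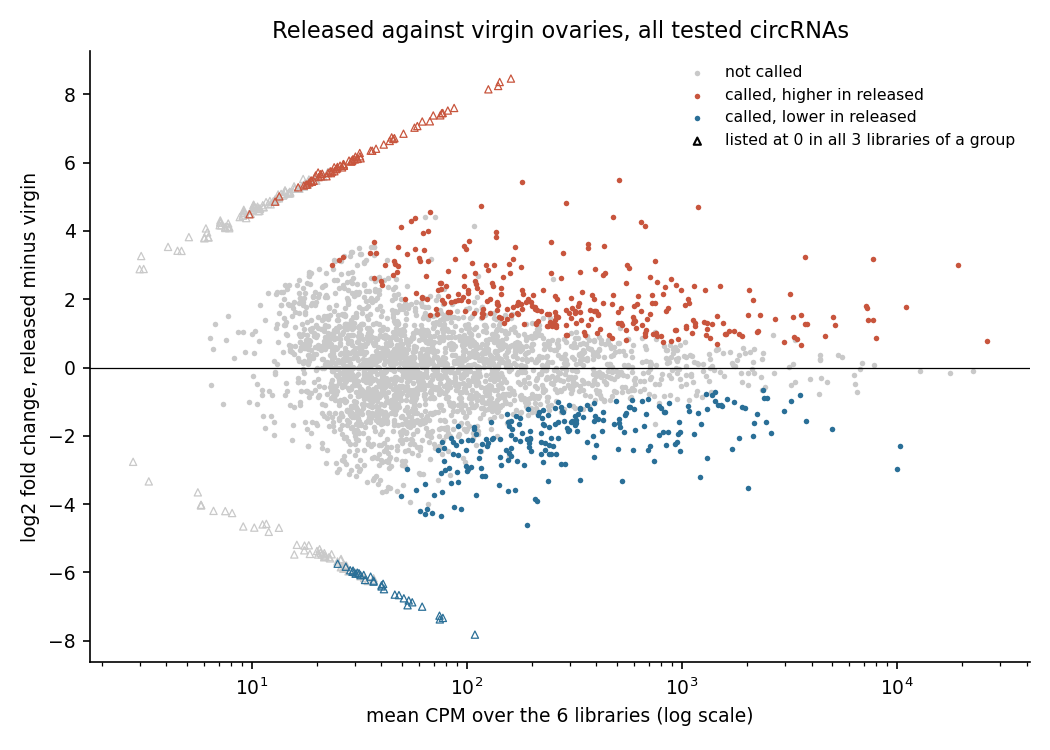
Each point is a tested circRNA, with its mean CPM over the 6 libraries on a log axis and its log2 fold change, released minus virgin. Red points are the 367 called higher, blue points the 254 called lower and grey points those not called, while triangles were listed at 0 in all 3 libraries of a group, so that their height depends on the prior count of the fit, and 11 circRNAs at 0 in both groups are not drawn.

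Calls were more frequent among circRNAs with more reads. When the tested circRNAs were split into 4 classes of nearly equal size by mean CPM over the 6 libraries, 7.21%, 8.08%, 20.0% and 41.9% were called, going up in level. For 968 circRNAs (30.1%) the 95% interval excluded differences over 4-fold in either direction, and it excluded differences over 2-fold for 174 (5.41%). For most of the circRNAs that were not called, the data thus do not bound the difference to under 4-fold.

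Among circRNAs listed in all 6 libraries, the largest difference towards released ovaries was that of ame_circ_0011802 (LG2, 4820556 to 4820912, plus strand). It had 3525, 1220.4 and 1991 CPM in the released libraries, against 19.9, 256 and 75.6 CPM in the virgin libraries. Every released library was well above the highest virgin library, which was virgin replicate 2. The fitted log2 fold change was 4.72 ± 0.57 (SE), or 26.3-fold (adjusted p = 9.91e-06). It was 4.08 without virgin replicate 1 and 5.74 without virgin replicate 2.

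On an unplaced scaffold, ame_circ_0000647 (scaffold GL634653.1, 5432 to 6387, minus strand) had 827, 964 and 928 CPM in the released libraries and 19.9, 30.1 and 92.3 CPM in the virgin libraries. The groups lay far apart, with virgin replicate 3 the highest of its group. Its fold was 21.2 (log2 4.40 ± 0.44 SE, adjusted p = 1.07e-06), and the log2 value was 5.34 without that library. At ame_circ_0019528 (LG9, 10843189 to 10843584, plus strand), the released libraries had 1494, 1129 and 1162 CPM and the virgin libraries 79.4, 105 and 50.4 CPM. Here both groups were tight and the difference was 17.7-fold (log2 4.15 ± 0.34 SE, adjusted p = 1.05e-07).

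Of the 8 named circRNAs with the largest differences upward, 3 lay in one stretch of LG2 joined by overlapping circles, a little before ame_circ_0011802. ame_circ_0011735 (LG2, 4758065 to 4779975, plus strand) had 7829, 7085 and 5026 CPM in the released libraries and 467, 1068 and 889.9 CPM in the virgin libraries, a fold of 9.35 (adjusted p = 4.68e-07). ame_circ_0011737 starts at the same position and ends at 4797638. It had 761, 842 and 351 CPM in the released libraries and 34.8, 165 and 33.6 CPM in the virgin libraries, so virgin replicate 2 was several times the other virgin libraries but below every released library. Its log2 fold change was 3.49 ± 0.49 (SE, adjusted p = 5.74e-05), and 4.28 without virgin replicate 2. The short ame_circ_0011720, from 4699241 to 4699421, was among the circRNAs with the most reads, at 13525, 15475 and 12087 CPM in the released libraries against 1216, 2602 and 1326 CPM in the virgin libraries (9.07-fold, adjusted p = 2.74e-07).

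The remaining 2 of these 8 were lower in level. ame_circ_0013083 (LG3, 7300798 to 7301448, plus strand) had 752, 488 and 288 CPM in the released libraries and 44.7, 45.1 and 67.2 CPM in the virgin libraries, 10.3-fold higher (adjusted p = 8.91e-06). ame_circ_0008899 (LG1, 2002289 to 2005308, minus strand) had 338, 195 and 324 CPM in the released libraries and 19.9, 75.2 and 25.2 CPM in the virgin libraries, 8.99-fold higher (adjusted p = 1.08e-04). In both, every released library exceeded every virgin library.

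The largest difference in the other direction was that of ame_circ_0018341 (LG8, 2460359 to 2464704, minus strand). It had 18.8, 24.4 and 27.0 CPM in the released libraries, against 427, 376 and 395 CPM in the virgin libraries. Both groups were tight, and the level was lower in released ovaries (log2 -3.91 ± 0.58 SE, adjusted p = 7.90e-05). The released values rest on 2, 4 and 3 reads.

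On LG12, 4 of the 8 named circRNAs with the largest differences downward were found, at 3 places. Of 125 tested circRNAs on LG12, 12 (9.6%) were higher and 14 (11.2%) lower, beside 11.4% and 7.90% of all tested circRNAs. ame_circ_0004003 (LG12, 9899841 to 9900083, plus strand) had 442, 214 and 243 CPM in the released libraries and 3063, 4602 and 3618 CPM in the virgin libraries, 11.5-fold lower (log2 -3.52 ± 0.28 SE, adjusted p = 1.05e-07). ame_circ_0003493 (LG12, 153385 to 153898, minus strand) had 18.8, 73.2 and 72.1 CPM in the released libraries and 596, 587 and 663 CPM in the virgin libraries, 9.79-fold lower (adjusted p = 5.99e-05). In neither did the groups overlap. The other 2, ame_circ_0003465 and ame_circ_0003467, end at the same position and start 11 bases apart (LG12, 1332757 to 1336368, minus strand for the second). The first had 47.0, 146 and 63.0 CPM in the released libraries and 1122, 707 and 1083 CPM in the virgin libraries. Its log2 fold change was -3.31 ± 0.51 (SE, adjusted p = 1.08e-04), and -4.04 without released replicate 2, the highest of its group. The second had more reads, 319.6, 171 and 189 CPM in the released libraries and 2869.7, 1384 and 2342 CPM in the virgin libraries (9.24-fold lower, adjusted p = 1.25e-05).

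Of these 8, the circRNA with the most reads in virgin ovaries was ame_circ_0017314 (LG7, 1604032 to 1622820, plus strand). It had 1588, 2709 and 1891 CPM in the released libraries, against 18668, 15808 and 19493 CPM in the virgin libraries. Its level was 7.92-fold lower in released ovaries (log2 -2.99 ± 0.28 SE, adjusted p = 6.05e-07), with a wide gap between the groups. A pair of LG14 circRNAs with few released reads complete the 8. ame_circ_0005464 (LG14, 7023410 to 7023640, plus strand) had 37.6, 12.2 and 18.0 CPM in the released libraries and 328, 180.5 and 126 CPM in the virgin libraries (log2 -3.17 ± 0.81 SE, adjusted p = 0.00929). ame_circ_0005479 (LG14, 7156300 to 7157186, plus strand) had 37.6, 12.2 and 18.0 CPM in the released libraries and 169, 196 and 193 CPM in the virgin libraries (log2 -2.91 ± 0.78 SE, adjusted p = 0.0124). Both calls were fragile. ame_circ_0005464 was not called without virgin replicate 1 (log2 -2.53, adjusted p = 0.120), ame_circ_0005479 was not called without released replicate 2 (log2 -2.60, adjusted p = 0.0569), and limma called neither.

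**Figure D2:**
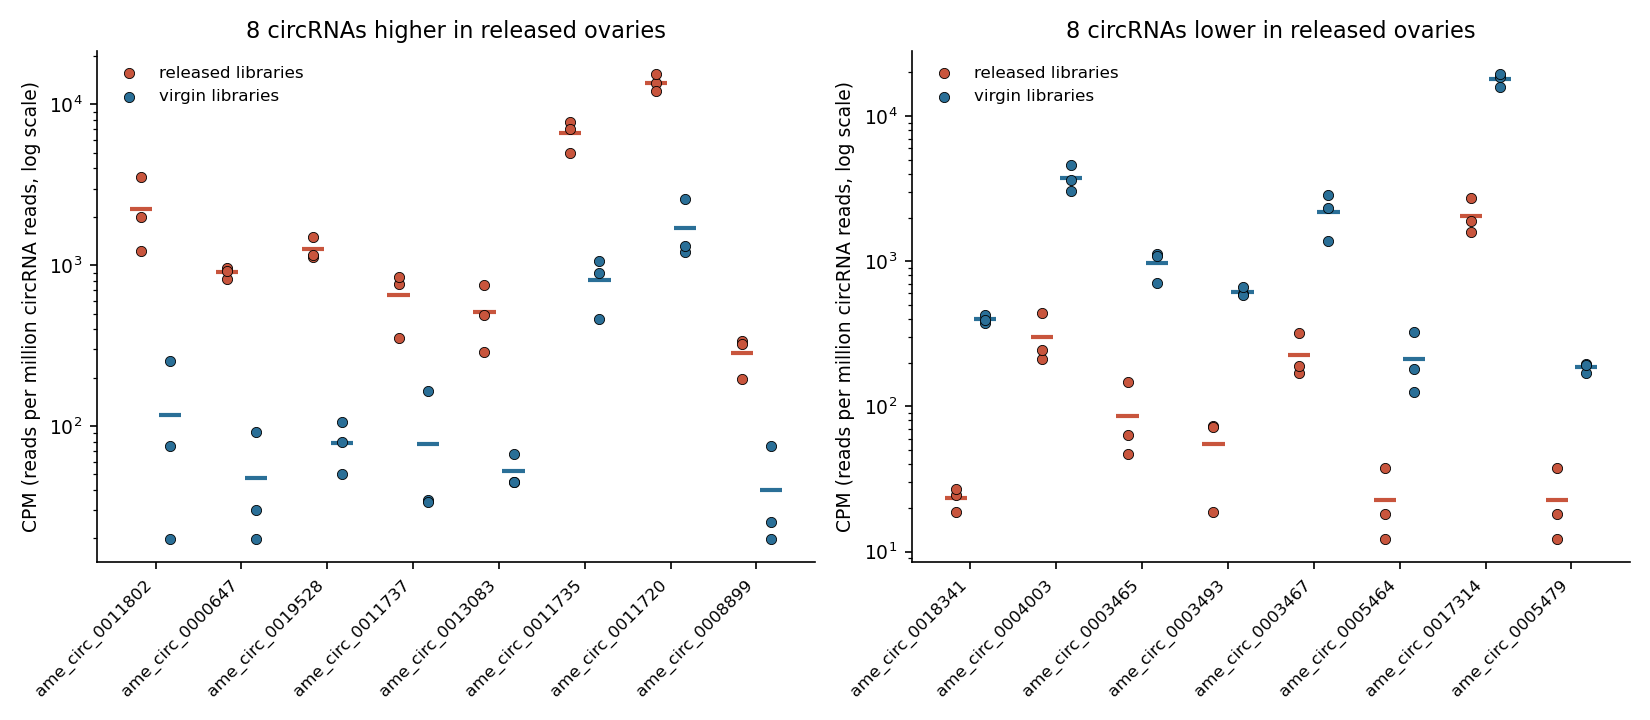
CPM on a log axis in each released library (red, left of each pair) and each virgin library (blue), with bars at the group means, for the 8 circRNAs with the largest fold change in each direction among those called and listed in all 6 libraries. No circRNA shown has overlapping groups, since the choice required that, and virgin replicate 2 is the highest virgin point of ame_circ_0011802 and ame_circ_0011737.

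A part of the calls were circRNAs listed in one group only. Of the 367 higher circRNAs, 69 had no reads listed in any virgin library, out of 177 tested circRNAs so listed. Of the 254 lower ones, 29 were listed at 0 in every released library, out of 90. A circRNA listed at 0 throughout a group could pass the filter on low counts only through libraries of the other groups. These counts thus partly follow from how circRNAs were chosen for testing, and they carry no test. Of the 20244 circRNAs in the whole table, 106 had reads in each released library and none listed in the virgin libraries. Reads in each virgin library and none listed in the released libraries were found for 164, and 1697 had reads in all 6 libraries.

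The highest of those listed at 0 in virgin ovaries was ame_circ_0004138 (LG13, 1645518 to 1646304, plus strand), with 583, 116 and 261 CPM in the released libraries (adjusted p = 1.18e-04). ame_circ_0011794 (LG2, 4795896 to 4806795, plus strand) had 169, 403 and 279 CPM in the released libraries (adjusted p = 7.24e-05). ame_circ_0012762 (LG3, 3692605 to 3693623, minus strand) had 677, 79.3 and 81.1 CPM in the released libraries, so most of its signal came from released replicate 1, although it was also called without it (adjusted p = 5.84e-04). ame_circ_0007775 (LG16, 6919774 to 7012430, plus strand) spans 92656 nt and had 254, 97.6 and 171 CPM in the released libraries (adjusted p = 0.00557). The weakest of the 5 was ame_circ_0009374 (LG1, 23018456 to 23036140, minus strand), with 479, 275 and 0 CPM in the released libraries (adjusted p = 0.0195). It was listed at 0 in released replicate 3. Its call was lost without released replicate 1 (adjusted p = 0.0561), without virgin replicate 1 (0.0725) and without virgin replicate 3 (0.0772), and neither DESeq2 nor limma called it.

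Listed at 0 in every released library, ame_circ_0015846 (LG6, 10570545 to 10571885, minus strand) had 189, 196 and 269 CPM in the virgin libraries (adjusted p = 3.05e-04). ame_circ_0001857 (LG10, 9091338 to 9123021, plus strand) had 184, 196 and 84.0 CPM (adjusted p = 0.00350), and ame_circ_0000665 (LG10, 10088950 to 10094399, minus strand) had 89.4, 105 and 176 CPM (adjusted p = 0.00624). These 3 had reads in some laying or caged libraries. ame_circ_0001442 (LG10, 5605442 to 5679854, plus strand) had 159, 196 and 92.3 CPM in the virgin libraries and was listed at 0 in all 9 other libraries of the study (adjusted p = 0.00497 with edgeR and 0.282 with DESeq2). Each circRNA named in this paragraph needed its virgin libraries to pass the filter on low counts, so its adjusted p partly follows from that choice. ame_circ_0003649 (LG12, 544695 to 548092, minus strand) had 218, 45.1 and 185 CPM in the virgin libraries (adjusted p = 0.0101, and 0.0555 without virgin replicate 1).

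Among the 10 circRNAs with the highest mean CPM over the 6 libraries, 4 were higher in released ovaries, 2 were lower and 4 were not called. ame_circ_0011734 (LG2, 4758065 to 4774296, plus strand) had 35058, 30548 and 34559.8 CPM in the released libraries and 2060.4, 8618 and 3837 CPM in the virgin libraries. It was 7.95-fold higher (log2 2.99 ± 0.35 SE, adjusted p = 7.77e-06), with a log2 value of 3.59 without virgin replicate 2. ame_circ_0006312 (LG15, 5011343 to 5011735, plus strand) had 13967, 15262 and 21013 CPM in the released libraries and 5913, 6498 and 3685 CPM in the virgin libraries (3.43-fold, adjusted p = 0.00204). ame_circ_0008426 (LG1, 15519388 to 15519832, plus strand) had 10433, 11149 and 8404 CPM in the released libraries and 6286, 5595 and 6103 CPM in the virgin libraries, a difference of 1.82-fold (adjusted p = 0.00593). In all 3, no virgin library reached a released one.

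ame_circ_0000149 (scaffold GL630373.1, 79029 to 79584, minus strand) had the most reads over the 6 libraries, with 34719, 29486 and 31642 CPM in the released libraries and 18728, 21764 and 20937 CPM in the virgin libraries. Its groups did not overlap, but the difference was small, at 1.72-fold (adjusted p = 0.0126). It was not called with library totals as the only scaling (adjusted p = 0.0562) or with limma (0.0733). Going the other way, ame_circ_0008042 (LG1, 1120279 to 1120966, plus strand) had 2622, 3161 and 3963 CPM in the released libraries and 18405, 15973 and 18033 CPM in the virgin libraries, 4.92-fold lower (log2 -2.30 ± 0.25 SE, adjusted p = 2.51e-06). Like ame_circ_0017314, it had a wide gap between the groups.

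The other 4 of the 10 did not pass the test. ame_circ_0017693 (LG7, 640672 to 648915, minus strand) had 11495, 28552 and 22644 CPM in the released libraries and 27471, 18951 and 26705 CPM in the virgin libraries, and its groups overlapped. The 95% interval of its log2 fold change was -0.73 to 0.55. Intervals were -0.59 to 0.28 for ame_circ_0009157, -0.63 to 0.41 for ame_circ_0013256 and -0.38 to 0.51 for ame_circ_0004652. Differences over 2-fold thus lay outside the intervals of these 4 circRNAs. The sign of a difference this small changed with the scaling or with the library left out.

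**Figure D3:**
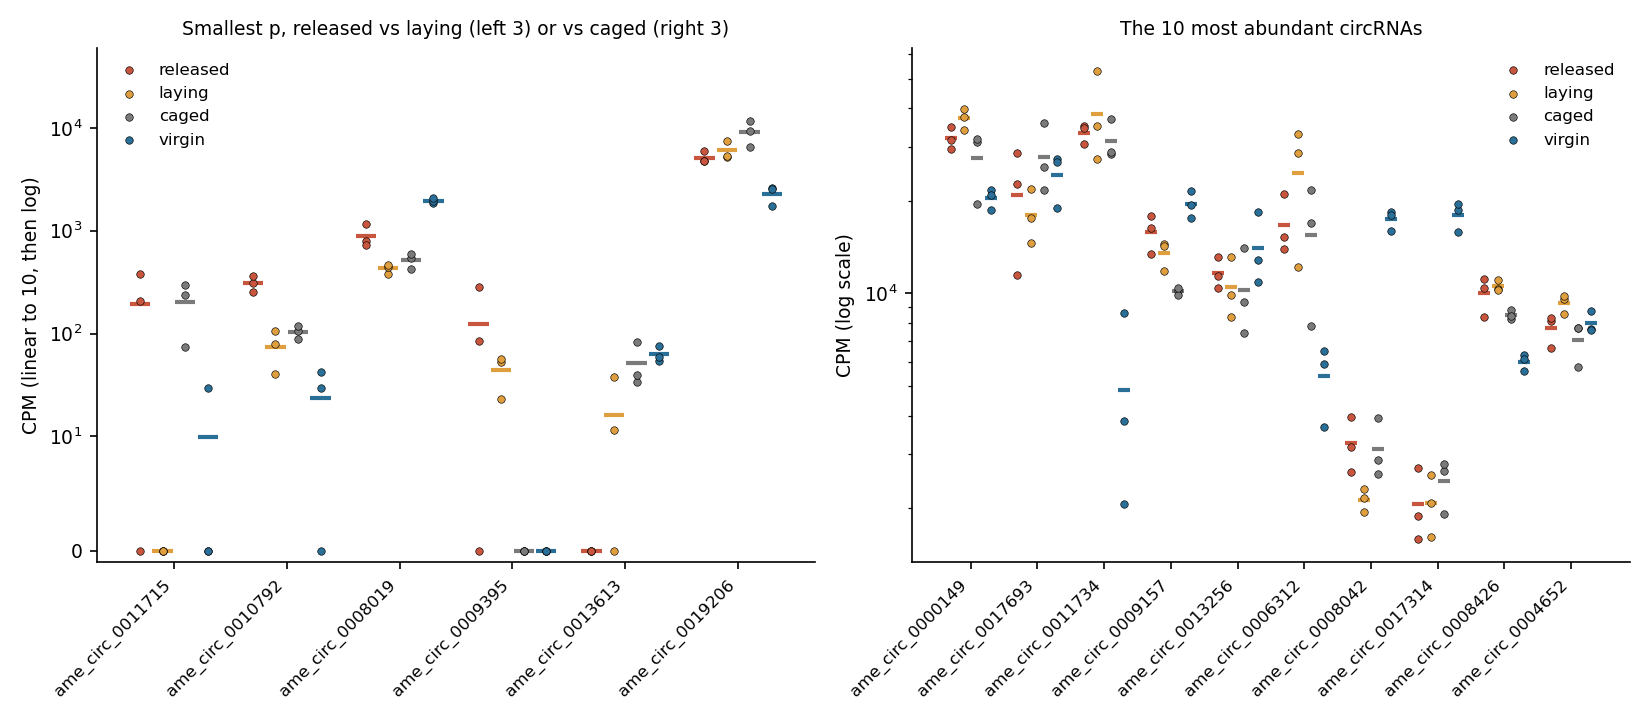
CPM in each library of the released (red), laying (yellow), caged (grey) and virgin (blue) groups, with bars at the group means, for 6 circRNAs chosen by the smallest p of released against laying or caged (left, linear to 10 and then log) and for the 10 with the highest mean CPM (right, log axis). In the right panel ame_circ_0011734, ame_circ_0008042 and ame_circ_0017314 show virgin libraries far from the other 9, and in the left panel ame_circ_0010792 is higher in released libraries than in any other group.

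The released libraries were also set against the laying and caged libraries in the same fit. No circRNA passed the test in released against laying ovaries with edgeR, where the adjusted p was 0.0641 at its smallest and 232 circRNAs had an unadjusted p under 0.05. None passed in released against caged ovaries either, with 0.557 as the smallest adjusted p and 205 circRNAs at an unadjusted p under 0.05. A missed threshold does not show that these ovaries were alike. Laying ovaries differed from the same virgin libraries at 731 circRNAs (22.7%) and caged ovaries at 687 (21.4%). All 3 comparisons share the virgin libraries, so agreement between them is not independent.

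Of the circRNAs called between released and virgin ovaries, ame_circ_0010792 (LG2, 11218336 to 11229860, plus strand) had one of the 3 smallest p in released against laying ovaries. It had 310.2, 256 and 360.3 CPM in the released libraries, 105, 40.2 and 78.6 CPM in the laying libraries, 106, 88.0 and 119 CPM in the caged libraries and 29.8, 0 and 42.0 CPM in the virgin libraries. Every released library was above every other library. Its log2 fold change was 3.54 ± 0.57 (SE) against virgin ovaries (adjusted p = 1.78e-04) and 2.03 against laying ovaries, where the adjusted p was 0.235. Summed with 1 overlapping circRNA into a locus, it was called in released against laying ovaries (log2 2.12, adjusted p = 0.0411), 1 of 2 loci out of 1654 so called (0.121%). The other, a single circRNA on LG5 from 5907191 to 5908645, had a mean of 6.10 CPM in released, 288 CPM in laying, 3.91 CPM in caged and 0 in virgin libraries and was not called between released and virgin ovaries. Both loci are named because they were the only 2 called and were picked after their values were seen.

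Levels between those of laying and virgin ovaries were found at ame_circ_0008019 (LG1, 10978631 to 10978872, plus strand), with 789.5, 1159 and 721 CPM in the released libraries. The laying libraries had 382, 448 and 460.1 CPM, the caged libraries 542, 423 and 596 CPM and the virgin libraries 1862, 1925 and 2065 CPM. Released ovaries were 1.98-fold lower than virgin ovaries (adjusted p = 0.00946, and 0.0623 without released replicate 1 and 0.154 without the filter on low counts), and their log2 difference from laying ovaries was 1.03 (adjusted p = 0.235). ame_circ_0019206 (LG8, 8549470 to 8600528, minus strand) had 4775, 4735 and 5927 CPM in the released libraries, 6555, 9349.6 and 11700.2 CPM in the caged libraries and 2597, 1729.7 and 2535 CPM in the virgin libraries. The laying libraries, at 7489, 5261 and 5364 CPM, overlapped the released ones. ame_circ_0019206 was 2.42-fold higher in released than in virgin ovaries (adjusted p = 0.00190), while released against caged ovaries gave a log2 difference of -0.91 (adjusted p = 0.557). ame_circ_0013613 (LG4, 1504179 to 1509957, minus strand) was listed at 0 in all released libraries and had 33.9, 82.2 and 39.7 CPM in the caged libraries and 54.6, 75.2 and 58.8 CPM in the virgin libraries (adjusted p = 0.0127 against virgin). Its laying libraries had 37.5, 11.5 and 0 CPM.

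Another 2 circRNAs in this set were listed at 0 in 1 released library, and their calls were unstable. ame_circ_0011715 (LG2, 4674977 to 4699421, plus strand) had 376, 0 and 207 CPM in the released libraries and 29.8, 0 and 0 CPM in the virgin libraries (adjusted p = 0.0301). It was not called without released replicate 1 (0.131), without released replicate 3 (0.0648), without virgin replicate 2 (0.0834) or without virgin replicate 3 (0.128). Nor was it called with DESeq2 (0.172), with limma (0.214) or with only the 6 libraries in the fit (0.0636). ame_circ_0009395 (LG1, 23162961 to 23164474, minus strand) had 84.6, 287 and 0 CPM in the released libraries and 0 in all virgin libraries (adjusted p = 0.00973, and 0.121 without released replicate 2 and 0.0726 with limma).

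Circles that overlap can contain the same exons, so the tested circRNAs were also joined into 1654 loci by overlapping spans on one strand, and their reads summed. Such a locus may be a gene, a part of one or several. In all, 471 loci (28.5%) were called, 270 (16.3%) higher and 201 (12.2%) lower in released ovaries. This balance depended on the settings. With library totals only, 194 loci were higher and 269 lower, and with DESeq2's size factors 222 were higher and 228 lower. There were 206 higher and 222 lower with limma, 205 and 208 with a stricter filter, and 197 and 208 with only the 6 libraries in the fit. Without virgin replicate 1 the count of lower loci was 133. Loci of 2 or more circRNAs were called at 40.3% of 573 and loci of 1 circRNA at 22.2% of 1081. Of the 89 loci that held 2 or more called circRNAs, 54 held only higher and 25 only lower ones, and 10 held both.

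The 5 higher loci with the smallest p differed in size. On LG9 from 10843189 to 10843764 (plus strand), 3 circRNAs with ame_circ_0019528 as the main one summed to 1560.2, 1214 and 1207 CPM in the released libraries and 79.4, 105 and 50.4 CPM in the virgin libraries (20.3-fold, adjusted p = 3.05e-08). The stretch of LG2 named above, from 4622669 to 4807227, held 31 tested circRNAs, of which 23 were higher and none lower in released ovaries with edgeR. They summed to 81191 ± 1776 CPM in released and 14999 ± 4971 CPM in virgin libraries (SD, n = 3 each), 6.52-fold higher (adjusted p = 4.18e-08). The circles of this stretch did not all differ by the same amount, as given below. The scaffold locus of ame_circ_0000647, scaffold GL634653.1 from 5432 to 6423 (minus strand), held a second higher circRNA and summed to 1306, 1587 and 1504 CPM in the released libraries and 39.7, 30.1 and 126 CPM in the virgin libraries. Its fitted log2 fold change was 4.70 (adjusted p = 4.18e-08), and 5.48 without virgin replicate 3.

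In the other 2 higher loci each group was tight. On LG14 from 1714098 to 1733063 (plus strand), 4 of 6 circRNAs were higher, and their sums were 2284, 1989 and 2324 CPM in the released libraries and 397, 526 and 403 CPM in the virgin libraries (5.96-fold, adjusted p = 3.03e-07). On LG12 from 6735589 to 6743431 (plus strand), 4 of 7 were higher, with sums of 4305, 3850.5 and 4152 CPM in the released libraries and 1236, 1263 and 1150.1 CPM in the virgin libraries (3.99-fold, adjusted p = 4.87e-07). No circRNA of either locus was called lower.

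Among lower loci, the smallest p was that of the locus of ame_circ_0017314 on LG7 from 1597826 to 1654071 (plus strand), where 4 of 7 circRNAs were lower and none higher. It summed to 2124, 3319.6 and 2369 CPM in the released libraries and 20868, 17492 and 21340.4 CPM in the virgin libraries (6.38-fold lower, adjusted p = 3.13e-07). On LG12 from 1332746 to 1336368 (minus strand), all 3 circRNAs were lower, and the sums were 367, 317 and 252 CPM in the released libraries and 4036, 2166 and 3526 CPM in the virgin libraries (8.88-fold lower, adjusted p = 3.64e-06). On LG2 from 14879280 to 14889708 (minus strand), the sums were 338, 354 and 216 CPM in the released libraries and 1479.5, 1775 and 2048 CPM in the virgin libraries (4.84-fold lower, adjusted p = 3.62e-06), although only 1 of its 3 circRNAs was called by itself. The other 2 loci, on LG14 from 7020265 to 7023640 (plus strand) and LG16 from 2918356 to 2935277 (minus strand), each held 2 circRNAs, all called lower, and their sums were 3.69-fold and 3.56-fold lower.

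Circles of one locus did not always differ by the same amount. In edgeR's test for unequal differences among the circRNAs of a locus, 69 of 573 loci (12%) were called. In 31 of these the summed reads of the locus were not called, so the mixture of circles differed while the sum did not pass the test, and in 10 the circles were called in both directions. The count was 43 without released replicate 1 and also 43 without released replicate 2. Some loci named above for their sums were among the 69, so their summed folds do not hold for each circle. These were LG2 from 4622669 (adjusted p = 1.11e-04), LG7 from 1597826 (2.40e-04), LG12 from 6735589 (0.00576) and LG16 from 2918356 (0.0407). With only the 6 libraries in the fit the LG12 value was 0.0550, and with a replicate block the LG16 value was 0.0837.

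The strongest case lay on LG1 from 18150632 to 18167182 (minus strand), with 7 tested circRNAs (adjusted p = 1.02e-06 for unequal differences). The summed reads were 1137, 775 and 594 CPM in the released libraries and 1281, 1188 and 1385 CPM in the virgin libraries, and the sum was not called (adjusted p = 0.215), though it was called lower with library totals only (adjusted p = 0.0353) and with limma (0.0318). One circle, ame_circ_0008724, had 930.5, 500.4 and 396 CPM in the released libraries and 124, 211 and 134 CPM in the virgin libraries. It made up 71.0% ± 9.41 of the reads of the locus in released libraries and 12.4% ± 4.64 in virgin libraries (SD, n = 3 each). ame_circ_0008722 ends at the same position but starts 1076 bases further out, and went the other way, with 28.2, 104 and 126 CPM in the released libraries and 362, 361 and 495 CPM in the virgin libraries. Neither pair of groups overlapped, and with edgeR the first was 4.38-fold higher (adjusted p = 1.08e-04) and the second 4.19-fold lower (adjusted p = 0.00408) in released ovaries.

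A similar pattern was found on LG16 from 4458980 to 4468298 (minus strand), with an adjusted p of 5.98e-06, again among 7 circRNAs. ame_circ_0007234, which spans 6030 nt, had 1720.0, 1934 and 2045 CPM in the released libraries and 809, 782 and 965 CPM in the virgin libraries. ame_circ_0007233, which spans 515 nt from the same start, had 254, 177 and 216 CPM in the released libraries and 899, 752 and 915 CPM in the virgin libraries. The 2 circles had nearly equal shares of the locus in virgin libraries. The longer one held 59.5% ± 0.622 of its reads in released and 37.6% ± 1.13 in virgin libraries, and the shorter one 6.83% ± 1.66 in released and 37.8% ± 2.21 in virgin libraries. The sum of the locus was 1.67-fold higher in released ovaries (adjusted p = 0.00567), and was not called with library totals only (0.0677).

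The smallest of these loci, on LG1 from 16485531 to 16491840 (minus strand), held only 2 circRNAs with one shared start (adjusted p = 5.06e-05). The short circle, ame_circ_0008491 of 608 nt, had 122, 91.5 and 144 CPM in the released libraries and 14.9, 0 and 0 CPM in the virgin libraries, where its only reads were 3 in virgin replicate 1. The long circle, ame_circ_0008492 of 6309 nt, had 18.8, 18.3 and 54.0 CPM in the released libraries and 114, 256 and 101 CPM in the virgin libraries. The short circle was called higher (adjusted p = 8.43e-04) and the long one lower (adjusted p = 0.0254), but the long one was not called without released replicate 1 (0.0982), released replicate 2 (0.0999) or virgin replicate 2 (0.0872), nor with no filter on low counts (0.250). The short circle held 80.9% ± 7.28 of the reads of the locus in released and 3.85% ± 6.66 in virgin libraries, and the summed reads did not differ by the test (adjusted p = 0.782).

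In the remaining 2 of the 5 loci with the smallest p, the sum of the locus was itself higher in released ovaries. On LG3 from 7299001 to 7301481 (plus strand), ame_circ_0013083 held 51.2% ± 15.3 of the reads in released and 9.81% ± 0.182 in virgin libraries, while ame_circ_0013076, which ends at the same position, held 9.32% ± 3.90 in released and 28.2% ± 11.5 in virgin libraries and was not called (adjusted p = 0.351). On LG1 from 21015280 to 21021392 (minus strand), 3 of 10 circRNAs were higher and none lower. The largest difference there was that of ame_circ_0009094, with 357, 183 and 216 CPM in the released libraries and 14.9, 45.1 and 0 CPM in the virgin libraries (log2 3.98 ± 0.62 SE, adjusted p = 1.18e-04). Its log2 value was 4.69 without virgin replicate 2. The sums were 2.12-fold higher on LG3 (adjusted p = 0.00188) and 2.01-fold higher on LG1 (adjusted p = 0.00174).

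Circles that share one end were then compared pair by pair. Among the tested circRNAs there were 2385 such pairs, made of 2002 circRNAs. Both circles were called in 212 pairs, in one direction in 202 and in opposite directions in 10. Only 1 circle was called in 712 pairs and neither in 1461. A circle can stand in many pairs, so the pairs are not independent and carry no test.

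The 10 opposite pairs, picked after their values were seen, lay in 7 loci. In 7 of them the longer circle was higher and the shorter one lower in released ovaries, and in 3 it was the reverse. Only 4 pairs kept both calls under every alternative tried, the LG1 and LG16 pairs with ame_circ_0008724 and ame_circ_0007234 described above and 2 on LG3. The LG3 pairs share the circle ame_circ_0012217 of 243 nt (LG3, 1091330 to 1091573, plus strand), which had 103, 219.7 and 171 CPM in the released libraries and 645, 827 and 579 CPM in the virgin libraries (3.65-fold lower, adjusted p = 0.00122). From the same start, ame_circ_0012223 spans 49402 nt and had 5348, 6596 and 5647 CPM in the released libraries and 3163, 4031 and 3022 CPM in the virgin libraries (1.91-fold higher, adjusted p = 0.00432). The still longer ame_circ_0012224 had 122, 91.5 and 90.1 CPM in the released libraries and was listed at 0 in all virgin libraries (adjusted p = 1.40e-04). None of these groups overlapped.

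**Figure D4:**
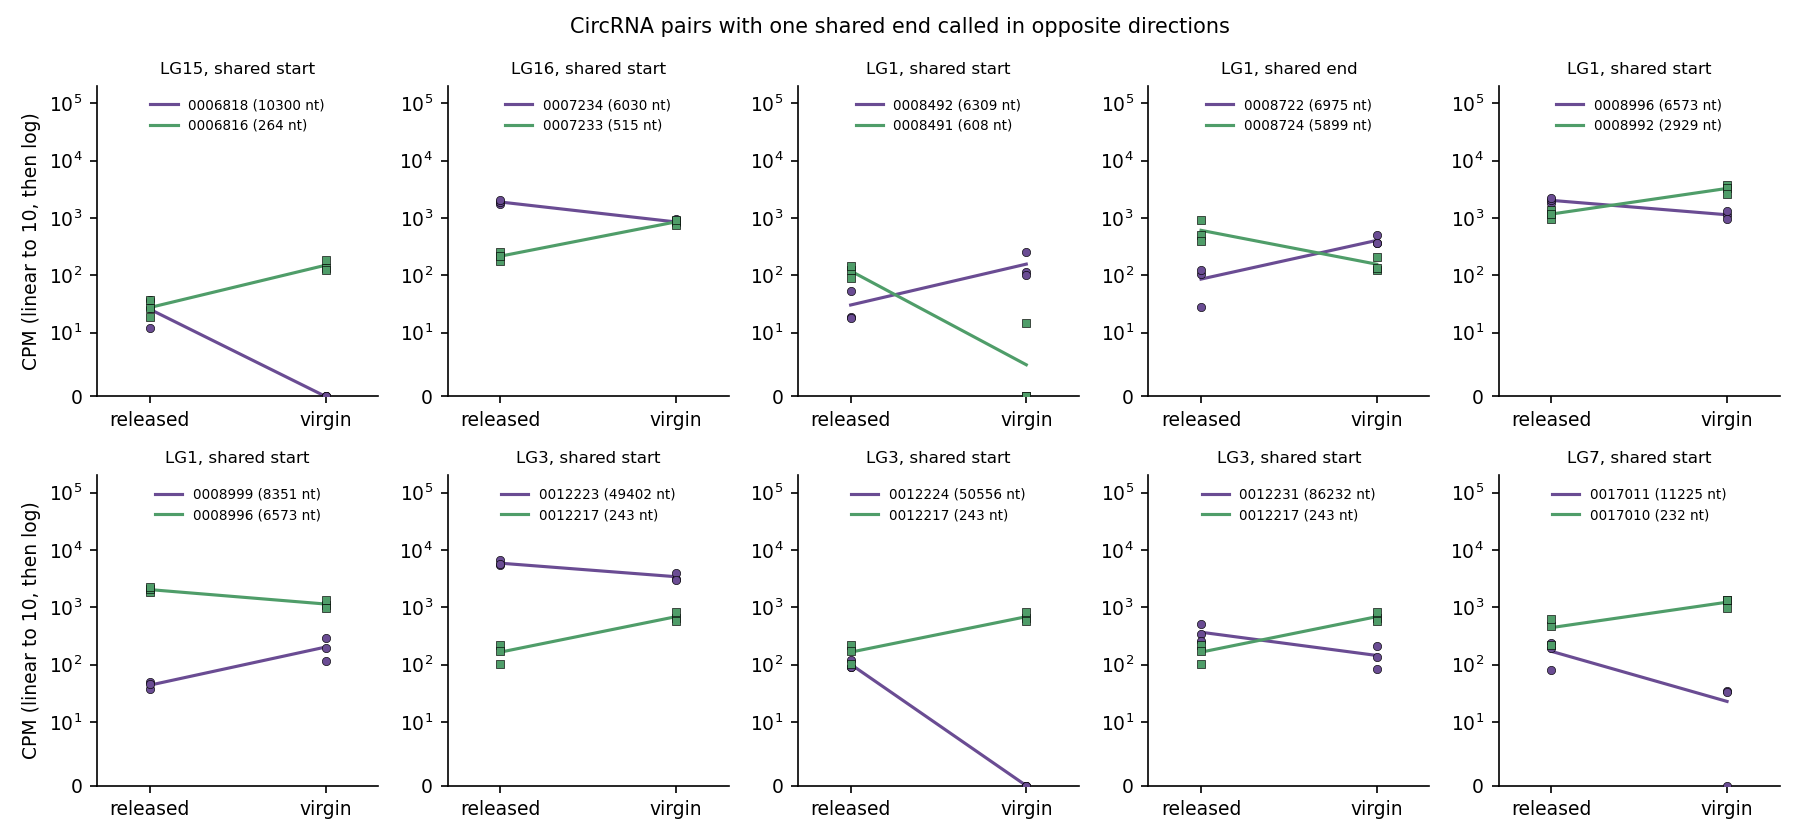
Each panel shows 2 circRNAs that share a start or an end and were called in opposite directions, with points for the CPM in each library (linear to 10, then log), lines joining the group means, and the span of each circle in the legend, the longer in purple and the shorter in green. The 2 lines run in opposite directions in all 10 panels, but only 4 pairs, those of ame_circ_0007234, of ame_circ_0008724 and of ame_circ_0012217 with ame_circ_0012223 and with ame_circ_0012224, kept both calls under every alternative.

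The direction of the calls went with the span between the back-spliced ends. Of 637 tested circRNAs spanning up to 500 nt, 40 (6.28%) were higher and 79 (12.4%) lower in released ovaries. Of 982 spanning 501 to 2000 nt, 114 (11.6%) were higher and 75 (7.64%) lower, and of 949 spanning 2001 to 10000 nt, 122 (12.9%) were higher and 68 (7.17%) lower. Of 647 spanning over 10000 nt, 91 (14.1%) were higher and 32 (4.95%) lower. The median log2 fold changes were -0.16, 0.07, 0.22 and 0.23 in these classes, beside 0.09 over all tested circRNAs. The medians did not keep this order in every case: without released replicate 2 they were -0.24, 0.0043, 0.15 and 0. The median span was 2546 nt for higher circRNAs, 1142.5 nt for lower ones and 1948.5 nt for those not called.

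**Figure D5:**
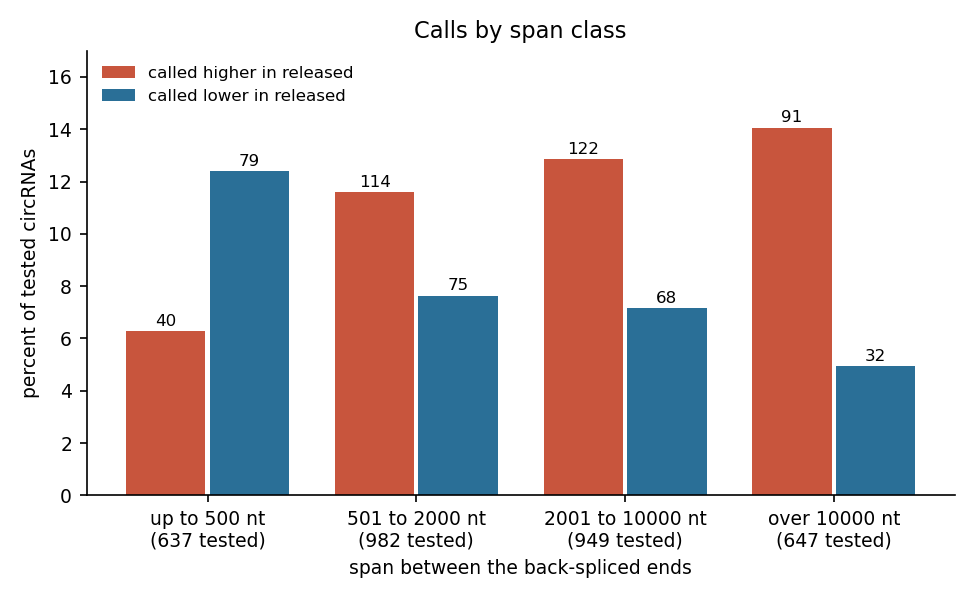
Percent of tested circRNAs called higher (red, left bar) or lower (blue, right bar) in released ovaries, by the span between the back-spliced ends in nt, with the number of calls above each bar. Lower calls outnumber higher ones at up to 500 nt (79 against 40), and higher calls outnumber lower ones at over 10000 nt (91 against 32).

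Under each alternative tried, chosen for this count after seeing the data, circRNAs of up to 500 nt had more lower than higher calls and those over 10000 nt had more higher than lower calls. With library totals only, the counts were 29 higher and 92 lower in the shortest class and 79 higher and 42 lower in the longest. The count of lower circRNAs over 10000 nt was 14 without released replicate 1, 15 without virgin replicate 1 and 17 without virgin replicate 3. No test was made of the relation to span, since circRNAs of one locus are not independent. The LG2 locus from 4622669 to 4807227, with 23 higher circRNAs and none lower, supplied a part of the higher calls over 10000 nt. Described in the same way, in pairs with one shared end the longer circle had the larger log2 fold change in 1316 of 2385 pairs (55.2%), with a median difference of 0.19.

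Library by library, the read-weighted median span was 1375, 1815 and 1712 nt in the released libraries and 1293, 1085 and 1201 nt in the virgin libraries. Every released library was above every virgin library, and the means were 1634 ± 230.1 and 1193 ± 104 nt (SD, n = 3 each; exact two-sided permutation p = 0.1, the smallest that 3 against 3 libraries can give). Circles of up to 500 nt held 22.0 ± 1.24% of reads in released and 25.1 ± 2.03% in virgin libraries, and here the groups overlapped (exact two-sided permutation p = 0.2). The laying libraries had a mean read-weighted median span of 1585 ± 51.1 nt and the caged libraries of 2075 ± 117 nt. The labels give no fragment size or RNA quality, and their part in these values was not tested.

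Released libraries listed fewer circRNAs than virgin libraries at equal depth. Thinned to 66487 reads, the smallest total of the 6, they listed 3299.9 ± 159 circRNAs, against 3905 ± 139 in virgin libraries (SD, n = 3 each; exact two-sided permutation p = 0.1). At the same depth, laying libraries listed 3105 ± 42.0 and caged libraries 3178 ± 60.5, so this was not particular to released libraries. Released minus virgin, the difference was -605.6 circRNAs over all listed circRNAs and -16.96 over tested circRNAs only. The filter that sets which are tested used all 12 libraries, and tested circRNAs held a larger share of released than of virgin reads. The 10 circRNAs with the most reads of a library held 18.0 ± 1.25% of reads in released and 14.7 ± 0.341% in virgin libraries (exact two-sided permutation p = 0.1). They held 19.0 ± 0.628% in laying and 18.0 ± 0.560% in caged libraries. With 3 libraries against 3, none of these 4 library values could pass a threshold of 0.05.

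Calls were spread over all 16 linkage groups. On LG2, 53 of 289 tested circRNAs were higher and 15 lower, and 23 of the 53 belonged to the locus of 31 circRNAs described above. On LG16, 18 of 106 were higher and 5 lower. LG1, the linkage group with the most tested circRNAs, had 47 higher and 55 lower of 500, and LG11 had 11 higher and 17 lower of 180, beside 11.4% higher and 7.90% lower overall. Both strands had similar shares, with 181 higher and 131 lower of 1595 circRNAs on the plus strand and 186 higher and 123 lower of 1620 on the minus strand. Across the 3215 tested circRNAs, which are not independent, and in libraries that differ in depth, log2(CPM + 1) correlated at 0.64 to 0.68 between released libraries, at 0.68 to 0.77 between virgin libraries and at 0.46 to 0.54 between released and virgin libraries. Released libraries correlated with laying libraries at 0.63 to 0.70 and with caged libraries at 0.65 to 0.72.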

How the data were processed

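Per the labels' protocols, ribosomal and linear RNA were removed from queen ovary RNA with a depletion kit and RNase R, and directional libraries were sequenced. The authors deposited whole-number read counts per circRNA and library. Columns named TPM per the file headers were recomputed as counts over the library total, scaled to 1000000, so they hold CPM and are called that. The submitters' processing notes name Bowtie with no version, and the way circRNAs were called was not given in the sources used here. Positions are Amel_4.5 as deposited, and the sources do not say whether starts count from 0 or 1. A gene table of another assembly was not used for coordinates, and 0 circRNAs were matched to genes.

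The test was the quasi-likelihood F test of edgeR 4.0.16 (R 4.3.3) on counts with TMM scaling. All 12 libraries entered one fit of 4 groups, with a filterByExpr minimum count of 5 and minimum total of 15. Library sizes were the reads of tested circRNAs. Benjamini-Hochberg adjusted p under 0.05 was the threshold, and the SE was the log2 fold change divided by the square root of F. The tests were tried on simulated counts, with differences placed only in circRNAs of at least the median level. Each circRNA was drawn independently there, so differences at low counts and the dependence between overlapping circles were not checked. Loci were built with GenomicRanges 1.54.1, and unequal differences within a locus were tested with edgeR's diffSpliceDGE. Values per library used exact two-sided permutation tests. Printed correlations are Pearson's.

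The named circRNAs are the 8 per direction with the largest fold change among called, non-overlapping circRNAs listed in all 6 libraries, the 5 per direction with the highest CPM among called circRNAs listed at 0 throughout one group, the 10 with the highest mean CPM, and 3 each with the smallest p against laying and caged ovaries among those called. Named loci are the 5 per direction with the smallest p and the 5 with the smallest p for unequal differences. Members and lists were chosen with earlier results of these data known. Alternatives were DESeq2 1.42.0, limma 3.58.1 on log2(CPM + 1), other scalings and filters, only the 6 libraries, a replicate block, loci by shared ends, and leaving out each released or virgin library. No laying or caged library was left out by itself. No pair of libraries within the released or the virgin group looked like a duplicate, and other pairs were not checked for this. Intervals cover 95%.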

Additional observations from a re-analysis of the deposited data

How the results depend on the processing

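Of 63 named circRNAs, 42 had the same call and sign under every alternative in which they were tested. Higher calls numbered 239 with only the released and virgin libraries, when lower calls numbered 254, and lower calls numbered 154 without a filter on low counts, which tests 20244 circRNAs. DESeq2 called 347 higher and 297 lower, limma 323 and 267, and library totals as the only scaling 312 and 315. The median log2 fold change was 0.17 lower with library totals than with TMM. Leaving out each released or virgin library gave 420 to 530 calls, 248 to 327 higher and 155 to 242 lower, 344 to 428 loci, 198 to 245 higher and 133 to 183 lower, and 43 to 55 loci with unequal differences. The difference in circRNAs listed at equal depth (-605.6) was -16.96 over tested circRNAs only and -878.3 without thinning. The cause was not tested.

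Among named circRNAs and loci, signs changed only where neither fit made a call. ame_circ_0017693 had a log2 fold change of 0.0067 without a filter, and between -0.42 and 0.29 with 1 library left out. With 1 library left out, ame_circ_0009157 had -0.28 to 0.051 and ame_circ_0009102 had -0.51 to 0.0028. ame_circ_0013256 had 0.013 without a filter and -0.24 to 0.050 with 1 library left out. ame_circ_0004652 had -0.022 with DESeq2's size factors, -0.11 with library totals, -0.025 with DESeq2, -0.062 with limma and -0.035 to 0.22 with 1 library left out. The LG1 locus from 16485531 to 16491840 had -0.098 with library totals, -0.039 with limma and -0.056 to 0.54 with 1 library left out.

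The labels number replicates 1 to 3 in each group and do not say that the numbers pair the libraries. The deviations of same-numbered released and virgin libraries from their group means correlated at -0.036, -0.012 and -0.015. Many of the circRNAs had few reads, so such correlations cannot show that the libraries were unpaired. The replicate block gave 321 higher and 216 lower circRNAs, 427 loci and 50 loci with unequal differences. The test for unequal differences was not run with DESeq2, limma or no filter. At this depth the 95% interval excluded differences over 4-fold for 968 of 3215 tested circRNAs.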
